A study of Mus musculus with 8 samples.

Results

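The 200 transcripts described here had the most ribosome footprints for their level of polyA-selected mRNA in the embryonic mouse forebrain, among transcripts with enough counts. They were chosen on measured values. The share of each transcript in the counts of a library was expressed as CPM (counts per 1000000 counts), averaged over the 4 footprint libraries and over the 4 mRNA libraries of both genotypes, and the log2 ratio of the averages was called its efficiency. Transcripts needed a mean count of at least 50 in mRNA and 10 in footprints, which 8665 of the 14801 transcripts present in both tables had, and the 200 with the highest efficiency are the members, 2.31% of those eligible. Efficiency and both levels, pooled over the genotypes, are therefore what the choice used and are given as a description without a test. The difference between the genotypes was not ranked, but a transcript could become a member through its values in 1 genotype. Over both genotypes the unlogged ratio of every member was at least 3.0788. The lowest ratio of a member was 1.47 in WT alone and 2.45 in Elp3cKO alone. A change of a member between the genotypes is therefore not fully separate from the choice.

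The study took forebrains of mouse embryos at stage E14.5, either wild type (WT) or Elp3cKO, in which Elp3 was conditionally deleted in progenitors of the cortex. The Cre line is not given in the sources used here, and a whole forebrain also holds cells outside that lineage. Each genotype was measured as ribosome footprints and as polyA-selected mRNA, with 2 libraries in each of the 4 groups. The labels do not say whether replicates, or the footprint and mRNA libraries, came from separate embryos, so p-values reflect the spread among these libraries alone, which may be technical.

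A ribosome shields a short stretch of mRNA from RNase, so the number of footprints on a transcript follows the amount of its mRNA and the number of ribosomes on each copy. Ribosome load depends on how often initiation occurs and on how fast ribosomes move along the coding sequence, and short upstream reading frames or structure ahead of the start codon are known to lower it. Elp3 is the catalytic subunit of Elongator, which modifies the wobble uridine of certain tRNAs, a modification that helps the ribosome decode particular codons. The ratio used here compares shares of libraries and is not a number of ribosomes per molecule. Its mRNA side is polyA-selected RNA, so copies that this selection misses are not in it, and how far this raised the ratio of any member was not tested.

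The files give each transcript as a UCSC known gene ID without a symbol, and 0 of the 16365 IDs matched the reference tables. Members are therefore named by their rank in efficiency, from 1 (highest) to 200, and 4 of them also by ID. Gene functions, sequences, the level of Elp3 itself and markers of forebrain cell types were not examined here. Libraries held 4119478 to 10082980 counts for footprints and 2059059 to 4823834 for mRNA.

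The members took 4.49% and 4.53% of all footprint counts in the WT libraries and 4.60% and 4.78% in the Elp3cKO libraries. In mRNA they took 1.17% and 1.15% of the counts in the WT libraries and 1.24% and 1.41% in the Elp3cKO libraries (replicates 1 and 2). Their share of footprints was thus several times their share of mRNA in every library, as the choice requires, and the mRNA share was highest in Elp3cKO replicate 2. The median member had 3.52 times the footprint CPM of its mRNA CPM, against 0.919 for the median eligible transcript. The highest member reached 11.6 times. Large ratios were few: 51 members had a ratio of at least 4, 15 of at least 5, and 1 of at least 8.

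No gap separated the members from the transcripts left out. The member at rank 200 had 3.0788 times as much footprint as mRNA share, and the next transcript, the first outside, had 3.0786. Within 0.1 log2 units of the limit lay 58 members above it and 78 other transcripts below it.

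Most members combined a modest mRNA level with a raised footprint level, which a ranking on their ratio above a minimum of mRNA counts favours. Their median mRNA level was 34.0 CPM (range 13.4 to 639), against 54.4 CPM for all eligible transcripts, and 52 of 200 were above that eligible median. Their median footprint level was 128 CPM (range 45.0 to 2015), against 51.1 CPM, and 188 of 200 were above the eligible median. Only 2 members were among the 200 eligible transcripts with the most mRNA, while 13 were among the 200 with the most footprints. Members ranked 1 to 50 had median levels of 206 CPM in footprints and 40.7 CPM in mRNA. The last 50 had 96.2 and 30.8 CPM.

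**Figure D1:**
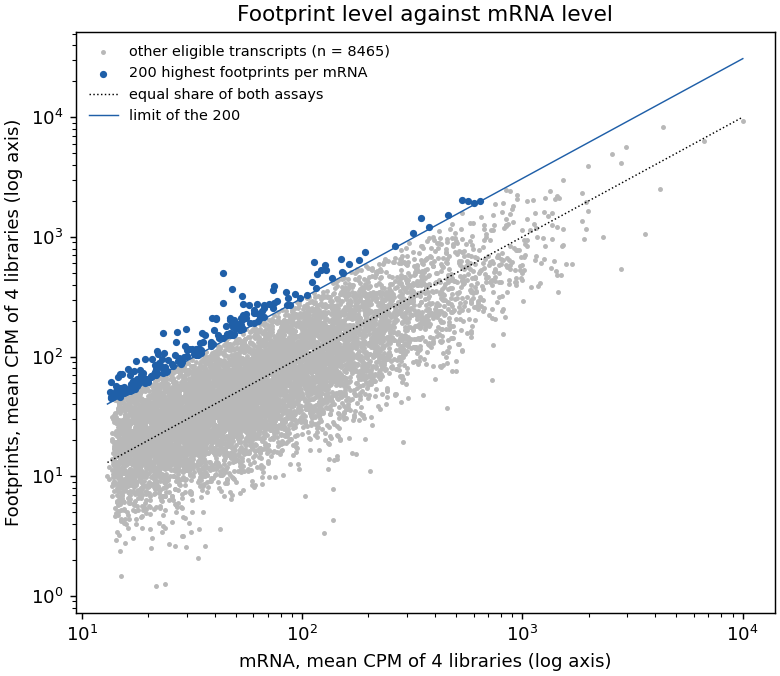
Mean footprint CPM (vertical, log axis) against mean mRNA CPM (horizontal, log axis), each over 4 libraries, for 8465 other eligible transcripts (grey) and the 200 members (blue). The dotted line marks equal shares in both assays and the blue line the limit at a ratio of 3.08; members lie above it along the mRNA range from 13.4 to 639 CPM.

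Among the members, a small group stood at the upper end in both assays, although no member reached a mean of 1000 mRNA CPM, as 65 eligible transcripts did. 8 members had a mean of at least 1000 footprint CPM. Rank 69, with the most footprints of all members, had 2027 and 2070 CPM in WT and 1903 and 2061 CPM in Elp3cKO footprints, and 447 and 505 CPM in WT and 567 and 615 CPM in Elp3cKO mRNA. Its footprint groups overlapped and its mRNA groups did not. At rank 98, the values were 1997, 2044, 1854 and 2128 CPM in footprints and 601, 481, 531 and 645 CPM in mRNA (WT replicates 1 and 2, then Elp3cKO replicates 1 and 2), with overlap in both assays. These took 0.202% and 0.201% of all footprints against 0.053% and 0.056% of all mRNA counts.

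The head of the ranking rested on libraries that did not all behave alike. The member at rank 1 had 198 and 261 CPM in the WT footprint libraries and 279 and 1275 CPM in the Elp3cKO footprint libraries. In mRNA it had 59.1 and 29.0 CPM in WT, and 3.89 and 81.9 CPM in Elp3cKO. Elp3cKO replicate 2 was the highest library in both assays, and Elp3cKO mRNA replicate 1, with 8 counts (exact 95% interval 1.68 to 7.66 CPM, for counting error only), was the lowest. From the WT libraries alone its ratio was 5.21 and its rank 16, and without Elp3cKO footprint replicate 2 its rank was 7. Its footprint change between the genotypes, a log2 fold change of 1.75 (SE 0.41), did not pass the test (adjusted p = 0.0583, edgeR).

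The members behind it were more even. The member at rank 2 had 435 and 408 CPM in WT and 341 and 290 CPM in Elp3cKO footprints, with mRNA of 44.0 and 48.0 CPM in WT and 47.1 and 53.9 CPM in Elp3cKO. Its footprints were lower in both Elp3cKO libraries, while its mRNA groups overlapped. The footprint difference was -0.42 on the log2 scale (SE 0.11) and did not pass the test (adjusted p = 0.108, edgeR). At rank 3, the values were 151.3, 150.9, 169 and 164 CPM in footprints and 28.6, 20.7, 17.5 and 26.1 CPM in mRNA, in the same order of libraries as for rank 98. Ranks 4 to 10 had ratios between 5.24 and 6.45.

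High efficiency was shared by both sets of replicate libraries, although the exact membership was not. When 200 transcripts were chosen in the replicate 1 libraries and read in the replicate 2 libraries, which took no part in that choice beyond the count minimums, their median efficiency went from 1.89 to 1.69, against an eligible median of -0.13. All 200 were above that eligible median, 191 were in its highest decile, and 117 (58.5%) were in its own highest 200. Chosen in the replicate 2 libraries and read in replicate 1, the median went from 1.84 to 1.78, and 194 were in the highest decile. Across genotypes the picture was alike: of 200 chosen in WT, 197 were in the highest decile and 121 in the highest 200 of Elp3cKO. Of 200 chosen in Elp3cKO, 188 were in the highest decile and 121 in the highest 200 of WT. Efficiency is what the rule used, so these values are a description without a test, and agreement between replicates may be technical. Of the members as defined over all libraries, 118 appeared in each of the 8 lists made without 1 library.

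Replicate agreement differed between the assays in the way the levels do. In footprints the median absolute log2 difference between the replicates was 0.14 in WT and 0.13 in Elp3cKO for members, against 0.22 and 0.19 for the other eligible transcripts. In mRNA it was 0.26 and 0.28 for members, against 0.18 and 0.17 for the others. Depth moved with this: the median member had 564.5 to 1245 footprint counts in a library but 70.5 to 191 mRNA counts, and 67 members had fewer than 50 counts in Elp3cKO mRNA replicate 1. The part of depth in these differences was not tested. By these medians the mRNA replicates of the members differed more than the footprint replicates, but not in every member: at rank 55 the WT libraries had 114 and 54.9 CPM in footprints and 12.8 and 14.7 CPM in mRNA.

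Before the genotypes are compared, 1 library must be named. Elp3cKO mRNA replicate 2 had the highest value of the 4 mRNA libraries in 121 of the 200 members (60.5%), against 24.5% of the other eligible transcripts. The median member stood 0.22 above its mean over the mRNA libraries there, on a scale of log2(CPM + 0.5), against 0.02 in Elp3cKO replicate 1, -0.09 in WT replicate 1 and -0.13 in WT replicate 2. In the footprint libraries the medians were -0.05 and -0.02 in WT and 0.04 and 0.03 in Elp3cKO. Both Elp3cKO libraries were thus above both WT libraries in each assay, but the gap between the mRNA replicates of Elp3cKO exceeded that between Elp3cKO replicate 1 and either WT library.

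**Figure D2:**
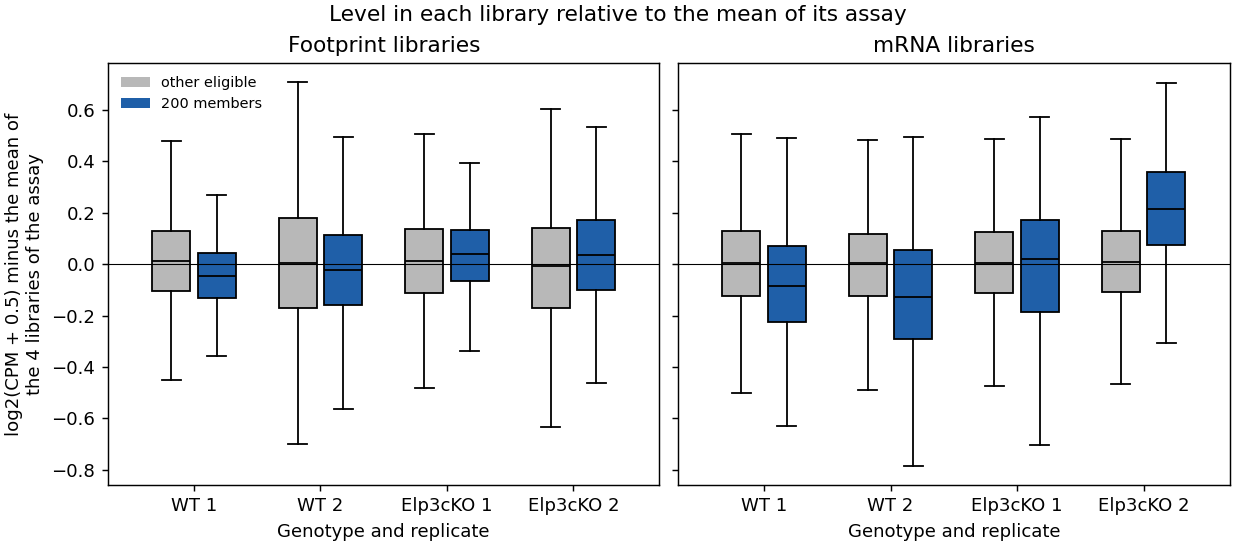
Level of the 200 members (blue) and 8465 other eligible transcripts (grey) in each library, as log2(CPM + 0.5) minus the mean of the 4 libraries of the assay. Boxes span the quartiles with the median as a line, whiskers reach the last value within 1.5 box lengths, and values beyond are not drawn; the members' median is highest, at 0.22, in Elp3cKO mRNA replicate 2.

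The first comparison asked which members changed in mRNA level in Elp3cKO. The mRNA of 5 members rose and that of 2 fell (quasi-likelihood test of edgeR, with p-values adjusted by Benjamini-Hochberg over all 11697 transcripts tested and a threshold of 0.05). That is 2.5% and 1% of the members, where 0.915% of all tested transcripts rose and 1.01% fell. Among the other eligible transcripts 1.10% rose and 1.30% fell. The median log2 fold change of the members was 0.23 (quartiles 0.00 and 0.43), with 151 of 200 above 0, while the median of all tested transcripts was 0.00 and 49.97% of them were above 0. In bulk tissue, more RNA per cell and more cells of a type cannot be told apart.

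The CPM of both Elp3cKO mRNA libraries was above that of both WT libraries in 85 members (42.5%) and below it in 14 (7%). Among the eligible transcripts these shares were 23.5% and 21.8%. The upward lean was present at every mRNA level: in 4 groups of 50 members ordered from the least to the most mRNA, 36, 36, 37 and 42 had a log2 fold change above 0. Its size rested in part on 1 library. Without Elp3cKO mRNA replicate 2 the members' median was 0.13, with 125 of 200 above 0, and without Elp3cKO mRNA replicate 1 it was 0.29, with 168 above 0. The calls moved too: without replicate 2 there were 2 rises and 4 falls among the members and 60 and 57 among all 11818 transcripts tested, and without replicate 1 there were 8 and 1 among the members and 100 and 160 among all 12282.

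The lean was not confined to the members but ran along the whole efficiency scale. In deciles of the 8665 eligible transcripts, from the highest to the lowest efficiency, the median mRNA log2 fold change went from 0.16 in the first and 0.09 in the second to -0.09 in the ninth and -0.12 in the last. Elp3cKO mRNA replicate 2 had the widest course of the mRNA libraries, from 0.16 above to 0.10 below the mean of the libraries (0.16 and -0.10). The WT libraries ran the other way, from -0.06 to 0.06 and from -0.09 to 0.04, and Elp3cKO replicate 1 was within 0.021 of the mean in all deciles. Since these values are relative to the mean of all 4 libraries, a course in 1 library gives the others an opposite one. Set against the WT mean alone, Elp3cKO replicate 1 went from a median of 0.09 in the first decile to -0.05 in the last, and replicate 2 from 0.24 to -0.15, so the direction was the same in both and smaller in replicate 1. The footprint log2 fold change followed with a smaller range, from 0.05 to -0.08. These medians describe transcripts sorted on levels from the same libraries.

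**Figure D3:**
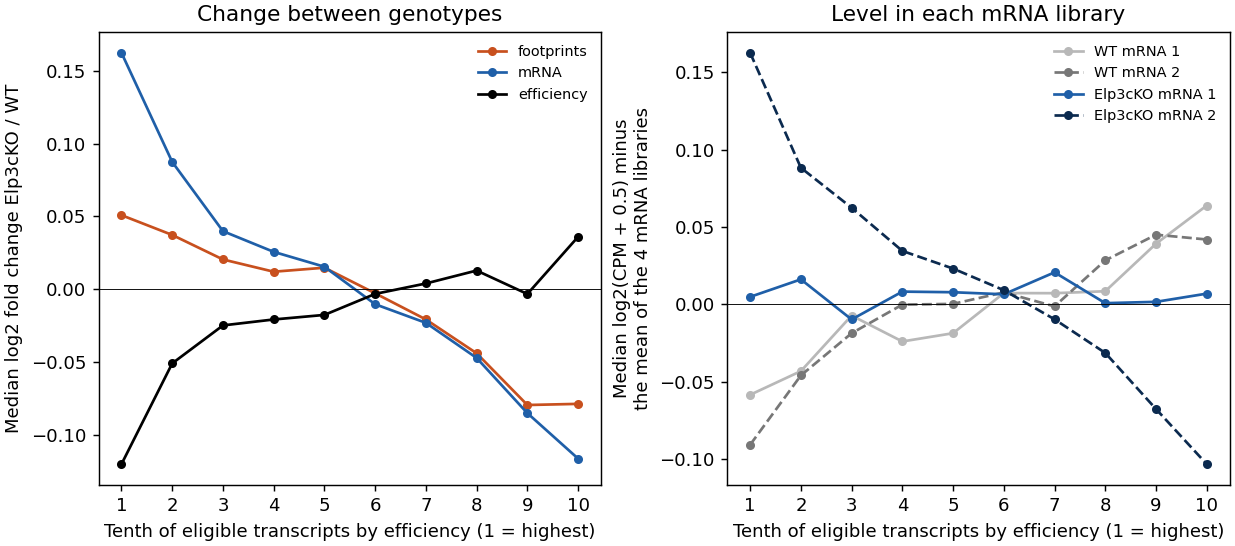
Left, median log2 fold change between Elp3cKO and WT for footprints, mRNA and efficiency in deciles of the eligible transcripts ordered by efficiency (1 is the highest). Right, median log2(CPM + 0.5) of each mRNA library relative to the mean of the 4; the mRNA change falls from 0.16 to -0.12 along the scale, and Elp3cKO mRNA replicate 2 has the widest course.

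The second comparison asked which members changed in footprints. Footprints of 3 members rose and those of 2 fell (the same edgeR test, adjusted over 12691 transcripts), 1.5% and 1% of the members, where 0.402% of all tested transcripts rose and 0.544% fell. Among the other eligible transcripts 0.496% rose and 0.756% fell. The shares are not at equal precision: the median SE was 0.15 for members, 0.22 for other eligible and 0.28 for all tested transcripts. The members' median log2 fold change was 0.06 (quartiles -0.07 and 0.24), with 124 of 200 above 0, against 0.01 and 50.5% over all tested. Both Elp3cKO footprint libraries were above both WT libraries in 72 members (36.0%) and below them in 36 (18%), where the eligible transcripts gave 22.3% and 23.3%. With 1 library left out, these counts and those of all tested transcripts, 51 rises and 69 falls, both moved. Without Elp3cKO footprint replicate 2 there were 1 and 0 among the members and 22 and 13 among all 13096 tested, and without Elp3cKO replicate 1 there were 3 and 0 against 26 and 8 of 13011. Without WT replicate 2 the members had 8 and 4, against 79 and 65 of 12979, and without WT replicate 1 they had 21 and 13, against 477 and 446 of 13017.

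9 members were called in at least 1 assay, and 3 of them in both, in the same direction each time. These 3 are 60.0% of the footprint calls and 42.9% of the mRNA calls. Over all transcripts tested in both assays, 280 were called in at least 1 and 64 in both, 53.8% of the footprint calls and 28.4% of the mRNA calls. Over all members, 131 of 200 (65.5%) had the same sign of change in both assays, against 61.1% of the 11588 transcripts tested in both. Among the members, 103 were above 0 in both assays, 28 below 0 in both, 48 above 0 in mRNA alone and 21 in footprints alone. Pearson's r between the changes was 0.26 across the 200 members and 0.30 across all those tested in both, a description over transcripts that share the same libraries.

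**Figure D4:**
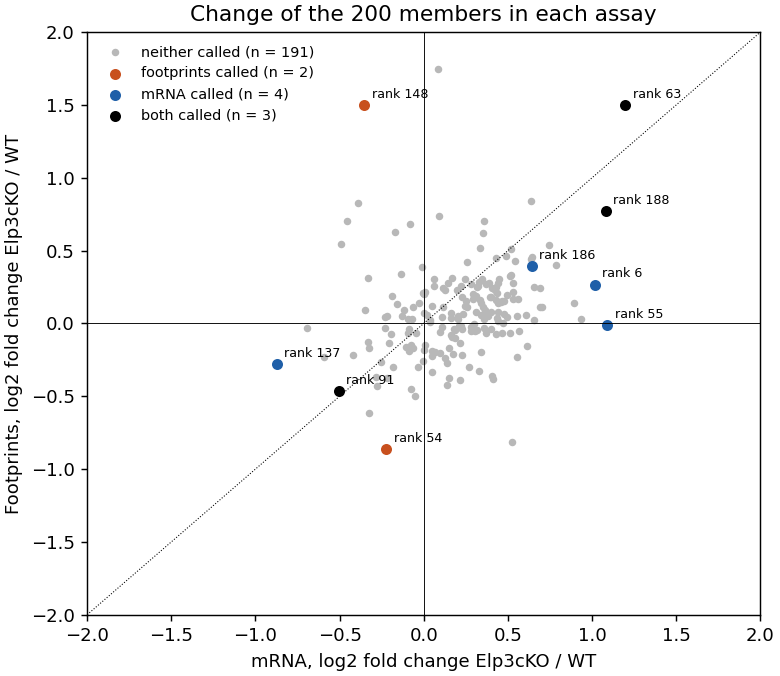
Log2 fold change in footprints (vertical) against mRNA (horizontal) for the 200 members, Elp3cKO over WT, with the dotted line at equal change. Coloured points are called at an edgeR adjusted p under 0.05 and carry their rank; 3 members are called in both assays, 2 in footprints alone and 4 in mRNA alone.

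The largest change called in both assays was a rise. This was rank 63, uc009fmy.2, with 57.5 and 61.9 footprint CPM in WT and 148 and 191 in Elp3cKO, and 20.0 and 15.7 mRNA CPM in WT and 48.1 and 36.7 in Elp3cKO. The genotypes did not overlap in either assay. The log2 fold change was 1.5 in footprints (SE 0.17; adjusted p = 0.000177, edgeR) and 1.2 in mRNA (SE 0.25; adjusted p = 0.00666, edgeR). The footprint rise was called in all 10 alternative fits. For its mRNA the DESeq2 Wald test gave no adjusted p. The mRNA rise was lost without Elp3cKO mRNA replicate 1 (adjusted p = 0.078, edgeR).

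A further rise in both assays was that of rank 188, uc007idb.2, which had 120 and 171 footprint CPM in WT and 248 and 250 in Elp3cKO, and 40.5 and 38.3 mRNA CPM in WT and 111 and 63.0 in Elp3cKO. No WT value reached an Elp3cKO value, but the Elp3cKO mRNA libraries differed widely from each other. The log2 fold change was 0.77 in footprints (SE 0.15; adjusted p = 0.0219, edgeR) and 1.08 in mRNA (SE 0.21; adjusted p = 0.0026, edgeR). The footprint call was lost without Elp3cKO footprint replicate 1 or 2 (adjusted p = 0.139 and 0.212, edgeR), and the mRNA call without Elp3cKO mRNA replicate 1 (0.188).

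Both assays fell by similar amounts for rank 91, uc007mhv.1, which had 675 and 689 footprint CPM in WT and 462 and 528 in Elp3cKO, and 189 and 194 mRNA CPM in WT and 120 and 149 in Elp3cKO, without overlap. The log2 fold change was -0.47 in footprints (SE 0.10; adjusted p = 0.0349, edgeR) and -0.50 in mRNA (SE 0.13; adjusted p = 0.0258, edgeR). The footprint fall was not called without Elp3cKO footprint replicate 1 or 2 (adjusted p = 0.362 and 0.164, edgeR). The mRNA fall was not called without WT mRNA replicate 1 or 2 or Elp3cKO mRNA replicate 1 (adjusted p = 0.0922, 0.0892 and 0.251, edgeR).

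2 members were called in footprints alone, and neither passed the test of a difference between the assays. One was a fall at rank 54, uc007ytx.1, with 108 and 119 footprint CPM in WT and 63.8 and 60.9 in Elp3cKO, a log2 fold change of -0.86 (SE 0.17; adjusted p = 0.0206, edgeR). Its mRNA was at 23.7 CPM in both WT libraries and at 23.3 and 18.5 CPM in Elp3cKO (change of -0.22 on the log2 scale, SE 0.27, adjusted p = 0.801, edgeR). Its footprint call was lost without Elp3cKO footprint replicate 1 or 2 (adjusted p = 0.152 and 0.277, edgeR). The other was a rise at rank 148, with 53.2 and 56.1 footprint CPM in WT and 78.2 and 235 in Elp3cKO (change of 1.5 on the log2 scale, SE 0.33, adjusted p = 0.0392, edgeR). The DESeq2 Wald test did not call it (adjusted p = 0.389), and its size rested on Elp3cKO footprint replicate 2, without which the log2 fold change was 0.51 and the edgeR adjusted p 0.976. Its mRNA was at 33.5 and 41.0 CPM in WT and at 13.6 and 40.8 CPM in Elp3cKO, so that, as at rank 1, replicate 2 of Elp3cKO was the higher of its pair in both assays. The ratio of rank 148 was 1.47 in WT alone, under the limit of 3.08, and 5.76 in Elp3cKO alone. It is thus a member through its Elp3cKO values, which include this rise.

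4 members were called in mRNA alone. The fall at rank 137 was the firmest: 195 and 200.7 mRNA CPM in WT against 83.5 and 129 in Elp3cKO, a log2 fold change of -0.87 (SE 0.14; adjusted p = 0.00031, edgeR), called in all 10 alternative fits. Its footprints were at 601 and 503 CPM in WT and 436 and 477 CPM in Elp3cKO (change of -0.28 on the log2 scale, SE 0.11, adjusted p = 0.327, edgeR). The ratio of rank 137 was 2.79 in WT alone, under the limit of 3.08, and 4.30 in Elp3cKO alone. It is thus a member through its Elp3cKO values, which include this fall. Ranks 54, 55, 186 and 188 were above the limit in WT alone but under it in Elp3cKO alone, at 2.99, 2.89, 2.91 and 2.86. At rank 186, mRNA rose from 81.7 and 82.4 to 127 and 131 mRNA CPM, a log2 fold change of 0.64 (SE 0.14; adjusted p = 0.00963, edgeR), with footprints of 291 and 278 CPM in WT and 385 and 367 CPM in Elp3cKO that did not overlap either. Its mRNA call was lost without WT mRNA replicate 1 (adjusted p = 0.0645, edgeR) or Elp3cKO mRNA replicate 2 (0.101).

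The other mRNA rises were at ranks 6 and 55, both with fewer than 100 mRNA counts in a library on average. For the mRNA of both, the DESeq2 Wald test gave no adjusted p. At rank 6, mRNA went from 19.3 and 16.0 to 37.9 and 35.0 mRNA CPM (change of 1.02 on the log2 scale, SE 0.25, adjusted p = 0.024, edgeR), with 133 and 158 footprint CPM in WT and 163 and 188 in Elp3cKO. Its mRNA call was lost without WT mRNA replicate 2 or Elp3cKO mRNA replicate 1 or 2 (adjusted p = 0.0662, 0.117 and 0.137, edgeR). At rank 55, mRNA went from 12.8 and 14.7 to 26.2 and 31.9 mRNA CPM (change of 1.09 on the log2 scale, SE 0.28, adjusted p = 0.029, edgeR), while its footprints were at 114 and 54.9 CPM in WT and 83.0 and 85.2 CPM in Elp3cKO. Its mRNA call was lost in the fit on all 8 libraries (adjusted p = 0.122, edgeR) and without WT mRNA replicate 1 or Elp3cKO mRNA replicate 2 (0.11 and 0.436).

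**Figure D5:**
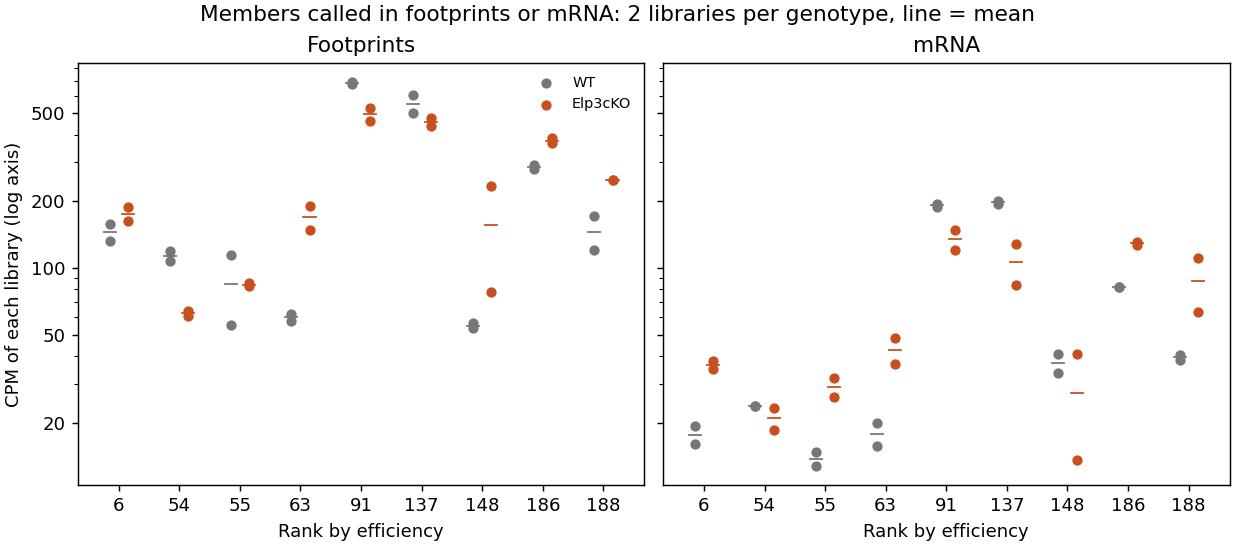
CPM of each library (log axis) for the 9 members called in footprints or mRNA, with 2 WT libraries (grey) and 2 Elp3cKO libraries (orange) per member and assay and a line at their mean. The points show the wide Elp3cKO pair of rank 148 in both assays and the WT and Elp3cKO pairs of rank 63, which do not overlap in either assay.

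The third comparison asked whether footprints changed beyond mRNA, that is, whether the efficiency of the members differed between the genotypes. The efficiency of 0 members rose and of 0 fell (interaction of genotype and assay in edgeR, adjusted over 11588 transcripts at the same threshold), where 0% of all tested transcripts rose and 0.0173% fell. At an unadjusted p under 0.05, 6 members were higher and 20 lower in Elp3cKO, 3.00% and 10.0% of the members, against 2.28% and 3.01% of all tested. Without Elp3cKO mRNA replicate 2 the members' median log2 change of efficiency was -0.02, with 93 of 200 above 0. That median describes the lean of all members and not the share of falls at this threshold. The DESeq2 Wald test also called 0 and 0. The median member had 3.83 times as much footprint as mRNA share in WT and 3.41 times in Elp3cKO.

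The members' median log2 change of efficiency was -0.18 (quartiles -0.34 and 0.05), with 143 of 200 below 0, against -0.02 over all tested transcripts. Without Elp3cKO mRNA replicate 2 this median was -0.02, with 93 of 200 above 0, while leaving out any other single library gave medians from -0.26 (without Elp3cKO mRNA replicate 1) to -0.16. The lean of the members to lower efficiency in Elp3cKO was thus not seen without that library. The smallest p among the members belonged to rank 23, with a log2 change of -1.35 (SE 0.36; adjusted p = 0.861, edgeR). It had 71.9 and 112 footprint CPM in WT and 49.5 and 55.3 in Elp3cKO, and 12.1 and 13.0 mRNA CPM in WT and 15.1 and 20.5 in Elp3cKO: both assays separated the genotypes, in opposite directions. The median SE of a member's efficiency change was 0.28, against 0.15 for its footprint change and 0.24 for its mRNA change.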

How the data were processed

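Per the labels' protocols, footprints came from monosome fractions of RNase-treated, cycloheximide-containing extracts, were size-selected, ligated to a linker and amplified by PCR, and mRNA libraries were made from polyA-selected RNA with a TruSeq kit. What the authors deposited, per the file headers, is an unnormalized count of reads for each UCSC ID in separate tables for the assays. CASAVA 1.8, Bowtie 1.0.0 and mm10 are named in the submitters' processing notes. Not given in the sources used here are the counter, the region of a transcript that it used, its treatment of strand and any removal of PCR duplicates, so reads shared between overlapping or similar genes are uncertain, and a ratio of assays assumes that both were counted over the same part.

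The 200 members and all comparisons were chosen with earlier results of these data known. Counts were tested in R 4.3.3 with edgeR 4.0.16 (filterByExpr with a minimum count of 10, TMM within each assay, quasi-likelihood F test, Benjamini-Hochberg adjustment over all transcripts), per assay and, for efficiency, as the interaction of genotype and assay over 8 libraries. All 200 members passed the filter in both assays, the rule itself having required a mean count of at least 50 in mRNA and 10 in footprints. SE is the log2 fold change over the root of F. Levels are CPM of the total count, and TMM factors were between 0.994 and 1.01. A count of 0 allows 3 counts, 0.298 to 0.728 CPM in footprints and 0.622 to 1.46 CPM in mRNA; no member was at 0, and intervals cover counting error only. The tests were tried on simulated counts. The rule for named transcripts, for IDs without symbols, gave ranks 1 to 10, 200 and 201 and the IDs of the 2 members with the smallest p in each direction among footprint calls; ranks 23, 69 and 98 and the called members given by rank alone were chosen after their values were seen. DESeq2 1.42.0, other scalings and filters, the replicate block and leaving out each library were the alternatives.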

Additional observations from a re-analysis of the deposited data

How the results depend on the processing

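Rises and falls of the members, 3 and 2 in footprints and 5 and 2 in mRNA as reported, kept to within 1.5 times these counts with DESeq2 size factors and in the fit on all 8 libraries, although over all tested that fit gave 96 and 143 in footprints and 57 and 30 in mRNA. In footprints no filter beyond 1 count gave 13 and 9 (177 and 198 of all 14819 tested), the Wald test of DESeq2 7 and 7 (109 and 134 of 12691), and the replicate block 15 and 9 (190 and 193), where all tested gave 51 and 69 as reported. In mRNA the rises were 9 with no filter (146 rises over all tested), 9 at a mean of at least 50 counts (132), 11 with the replicate block (166) and 3 with the DESeq2 Wald test (83), which gave no adjusted p for 123 members; all tested gave 107 rises and 118 falls as reported. Leaving out 1 library gave 1 to 21 rises and 0 to 13 falls in footprints, 2 to 8 and 1 to 4 in mRNA, and 0 and 0 to 1 for efficiency, the 1 being without WT footprint replicate 1 (31 rises and 10 falls over all tested). The cause was not tested. With 1 library left in a group, it is assumed to vary like the others. The members' median log2 fold change was 0.059 to 0.086 in footprints, 0.13 to 0.29 in mRNA and -0.26 to -0.024 in efficiency with 1 library left out. No call of a named member reversed.

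Of the 200 members, 161 to 190 were chosen again without 1 library, fewest without Elp3cKO mRNA replicate 2. With WT or Elp3cKO libraries alone 154 and 153 were chosen again, with TMM-scaled CPM 199, and with a minimum mean of 20 mRNA counts 134. With a minimum of 100 mRNA counts 116 were, because 84 members have fewer. These are 42.0% of the members, against 24.8% of the eligible transcripts, so the members lie closer to the count minimum. The replicate difference (1 minus 2) of WT hardly correlated with that of Elp3cKO, at 0.055 in footprints and 0.018 in mRNA, and no label gives a shared litter, batch or day, so replicates were treated as unpaired. Whether a footprint library and the mRNA library of the same number were paired was not checked, and the efficiency test treated all 8 libraries as independent. Depth limits Elp3cKO mRNA replicate 1 most, where the median member had 70.5 counts. Gene lists and marker lists were not tested for lack of symbols.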
